A study of Mus musculus with 2 samples.

Results

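Shared DNaseI-hypersensitive peaks that were wider after TGFβ numbered 751 of 13978 one-to-one pairs of peaks from the vehicle and TGFβ lists of NMuMG cells. NMuMG is a mouse mammary epithelial line of normal origin that is used to follow the epithelial-to-mesenchymal transition that TGFβ sets off. All cells were kept for 6 h without serum and insulin and then received either the acid and albumin carrier (vehicle) or TGFβ1 at 5 ng/ml, in both cases for 2 h. DNaseI cuts DNA that is free of nucleosomes, and a peak is a stretch where cuts pile up, so the list of each condition gives the position and width of its open regions on the mm9 build. A peak of the vehicle list and a peak of the TGFβ 2 h list were paired when they shared at least 1 bp and neither overlapped a second peak of the opposite list. A pair was kept when its TGFβ 2 h peak was at least 25% wider than its vehicle peak and at least 150 bp wider. The members were chosen by these widths, which are therefore given as a description and with no test. A member was called a promoter member when its TGFβ 2 h peak came within 1000 bp of a GENCODE M1 transcript start (292 members), and distal otherwise (459 members).

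Each condition is represented by 1 peak list, although the submitters describe duplicate cultures, so there is no replicate spread and no test between conditions. Intervals are 95% intervals that cover counting error only, by Wilson's method for shares, by the exact Poisson method for sites per kb and by the exact binomial method for ratios. Members are regions of the same pair of lists and are not replicates. The lists themselves differed: the vehicle list held 17784 peaks of median width 770 bp and the TGFβ 2 h list 22600 peaks of median width 621 bp, and this list-wide difference and the treatment cannot be told apart. The TGFβ 2 h list also came from fewer filtered reads, by the read depths that the study lists, and the part of depth in the widths was not tested. Of 10 epithelial marker genes, Krt8, Krt18 and Cdh1 had a peak at a transcript start in both lists, whereas none of 10 markers of other cell types did.

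TGFβ binds a pair of kinase receptors that phosphorylate SMAD2 and SMAD3, which enter the nucleus with SMAD4 and bind DNA together with other factors. Among these partners are the AP-1 dimers of the Fos and Jun families, whose consensus is TGAGTCA. Read from the opposite strand it becomes TGACTCA. An open region can change at its edges while its core stays open, and a wider peak then holds a gained stretch, which lies in the TGFβ 2 h peak alone, beside a common stretch, which lies in both.

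The 8 distal members with the largest gains show what a gained stretch can hold. Of these, 4 carried the AP-1 consensus in the gained stretch, and those near Itgb5, Slc16a11, Tmem131 and Myh9 are printed because the consensus lay outside the vehicle peak and inside the TGFβ 2 h peak. They are given on the plus strand of mm9, 5′ to 3′, with the consensus in capitals.
Itgb5 site nearest to the vehicle edge, chr16:33836653-33836753: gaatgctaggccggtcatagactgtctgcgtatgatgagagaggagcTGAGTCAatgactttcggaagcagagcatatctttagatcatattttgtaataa
Itgb5 second site, chr16:33836915-33837015: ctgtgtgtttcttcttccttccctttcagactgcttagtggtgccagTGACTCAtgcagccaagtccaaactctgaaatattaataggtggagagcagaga
Slc16a11 region, chr11:70007264-70007364: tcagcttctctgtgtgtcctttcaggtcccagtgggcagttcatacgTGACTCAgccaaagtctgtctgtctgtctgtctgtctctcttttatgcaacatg
Tmem131 region, chr1:36977348-36977448: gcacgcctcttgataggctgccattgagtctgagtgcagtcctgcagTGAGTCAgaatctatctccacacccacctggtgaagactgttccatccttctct
Myh9 region, chr15:77712333-77712433: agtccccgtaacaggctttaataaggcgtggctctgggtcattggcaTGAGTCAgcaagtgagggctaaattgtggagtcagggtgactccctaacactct

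Near Itgb5, which encodes the integrin β5 subunit, the vehicle peak of 73 bp lay within a TGFβ 2 h peak of 1119 bp at chr16:33836584-33837702, in an intron of the gene. The gain was 16 bp on one side and 1030 bp on the other, and the gained stretch held consensus sites that included those 27 and 289 bp beyond the vehicle edge. The vehicle peak scored 602 and the TGFβ 2 h peak 1000, the highest score in either list. This member had the widest gain and the largest width ratio (15.3) of all 751. It rests on a very small vehicle peak, and it is 1 of 8 members that are lost when peaks under 150 bp are dropped. Upstream of Myh9, which encodes the heavy chain of non-muscle myosin IIA, a peak of 577 bp became 1349 bp (chr15:77712274-77713622), with 755 bp gained on one side and the consensus 642 bp beyond the vehicle edge. In an intron of Tmem131 the widths were 331 and 1107 bp, and the consensus lay 104 bp beyond the edge. In the intergenic member nearest to Slc16a11, a monocarboxylate transporter family gene, the widths were 218 and 1052 bp, and the site lay 82 bp beyond the edge. The 4 other distal members among the 8 had no consensus in the gained stretch. They lay in an intron of Hsd17b12 with the start of Alkbh3 nearest (349 and 1301 bp, with 1 consensus in the common stretch), between genes with Alk nearest (418 and 1273 bp), in an intron with Chst1 nearest (399 and 1199 bp) and between genes with Elf2 nearest (466 and 1237 bp).

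**Figure D1:**
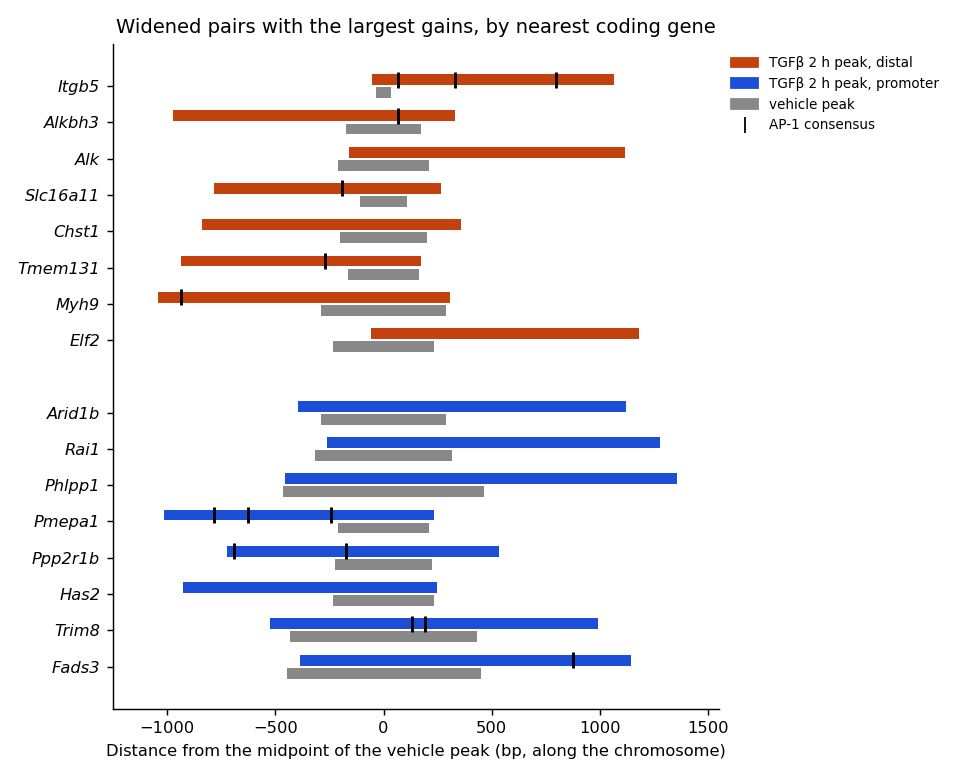
Vehicle peaks (grey) and TGFβ 2 h peaks (orange, distal; blue, promoter) of the 8 distal and 8 promoter members with the largest gains, placed by distance in bp from the midpoint of the vehicle peak and labelled with the nearest protein-coding gene; black ticks mark AP-1 consensus sites in the TGFβ 2 h peak. Most bars reach out on a single side of the vehicle peak, and the bar of Pmepa1 carries 3 ticks outside it.

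Among the 8 promoter members with the largest gains, Pmepa1 stood out by its sites. Pmepa1 encodes a membrane protein that restrains TGFβ receptor signalling and is itself a TGFβ target. Its peak, in an intron and 1.06 kb from the nearest protein-coding start, measured 418 bp in vehicle and 1246 bp after TGFβ (chr2:173100008-173101253), with 803 of the 828 bp gained on one side and 3 consensus sites in that stretch, at 32, 413 and 573 bp beyond the vehicle edge. A peak of the TGFβ 2 h list alone lay within 10 kb. In an intron of Has2, which encodes a hyaluronan synthase, at 1.755 kb from its nearest protein-coding start to the midpoint, the widths were 470 and 1175 bp, with 691 bp gained on one side and no consensus. The 3 largest promoter gains were at Arid1b, a subunit of the BAF chromatin remodelling complex (576 and 1512 bp), at Rai1 (632 and 1539 bp) and at Phlpp1, a phosphatase that acts on Akt (932 and 1811 bp). These 3 peaks were rich in CpG, at 12.2, 10.98 and 12.4 CpG per 100 bp, and none held the consensus. The remaining promoter members were at Fads3 (896 and 1528 bp), in an intron of Ppp2r1b (450 and 1259 bp) and in an intron of Sufu (862 and 1516 bp). The Has2, Ppp2r1b and Sufu members met the promoter rule through other transcript starts. The nearest protein-coding start was 30.5 kb away for the Ppp2r1b member and 42.0 kb away, at Trim8, for the Sufu member.

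Over all 751 members the median width was 540 bp in vehicle and 817 bp after TGFβ, and the median gain was 254 bp (interquartile range 198 to 335 bp, range 151 to 1046 bp). Distal members went from a median of 492 to 768 bp and promoter members from 646 to 908.5 bp. Members made up 5.37% of all shared pairs, 3.23% of the 9044 promoter pairs and 9.3% of the 4934 distal pairs. The opposite change was more frequent: 3812 pairs (27.3%) were narrower after TGFβ by the same limits, which is 0.197 widened pairs for each narrowed pair (0.182 to 0.213). More narrowed than widened pairs were counted on each of the 20 chromosomes, where members were between 4.12% (chromosome 10) and 8.29% (chromosome 13) of pairs. A further 8224 pairs differed by less than 150 bp either way and serve below as pairs of like width. Close to the limits, the narrowest gains inside were 151 bp (widths of 467 and 618, 460 and 611, and 446 and 597 bp), and the nearest outside were 149 bp (418 and 567, and 422 and 571 bp) and 148 bp (472 and 620 bp). By ratio, the nearest pairs inside had widths of 624 and 780, 948 and 1185, and 790 and 988 bp, and the nearest outside 729 and 911, 653 and 816, and 794 and 992 bp.

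**Figure D2:**
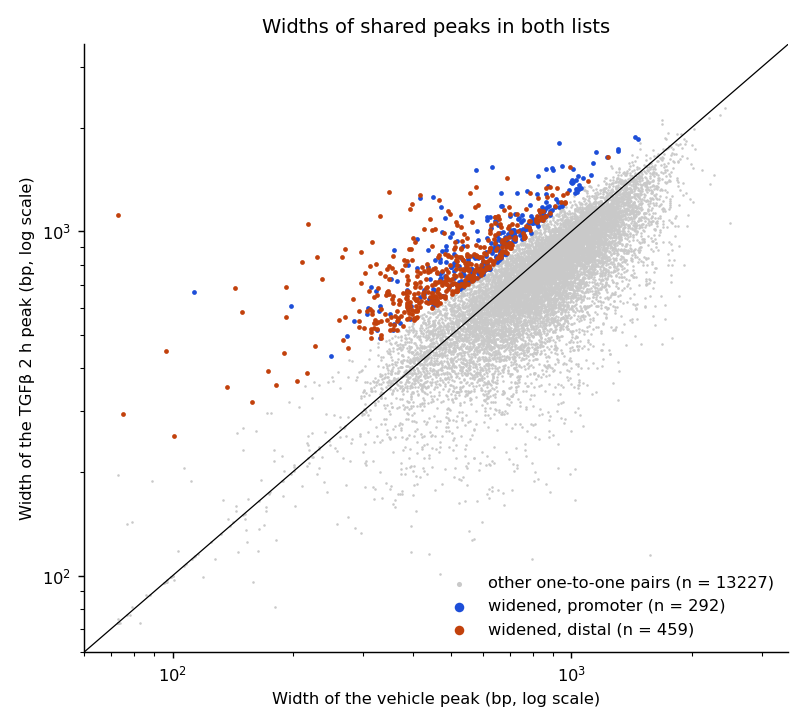
Width of the vehicle peak (x axis) against width of the TGFβ 2 h peak (y axis), both in bp on log scales, for one-to-one pairs; orange and blue points are the 459 distal and 292 promoter members, grey points the other pairs, and the line marks equal widths. The members form the band above the line, and the grey cloud lies mostly on and below it.

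The rule uses the vehicle width, as a ratio, and so favours narrow vehicle peaks. The median vehicle width was 540 bp in members, 763 bp in pairs of like width and 936 bp in narrowed pairs, which describes the choice and is not a trait found in the members. Promoter peaks were wider to begin with, and the promoter and distal shares are therefore also given by vehicle width. Under 400 bp they were 17.99% (12.5 to 25.2) and 22.8% (19.5 to 26.5). Between 400 and 600 bp they were 12.4% (10.3 to 15.0) and 15.0% (13.2 to 16.9), and between 600 and 800 bp 5.38% (4.48 to 6.44) and 6.195% (5.08 to 7.54). Between 800 and 1000 bp they were 1.49% (1.09 to 2.03) and 2.87% (1.98 to 4.14), and at 1000 bp or more the order turned, at 0.635% (0.420 to 0.960) and 0.371% (0.102 to 1.34). The intervals overlapped in each of these bands, though by little between 800 and 1000 bp. Promoter members were 38.9% of all members (35.5 to 42.4), against 67.3% of narrowed pairs (65.8 to 68.8) and 62.8% of pairs of like width (61.8 to 63.9).

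Gains at a single edge were more frequent than gains at both. In 495 members (65.9%) the vehicle peak lay wholly within the TGFβ 2 h peak, yet only 240 (32.0%, 28.7 to 35.4) gained at least 50 bp at both edges. In 407 members (54.2%, 50.6 to 57.7) 90% or more of the gain was at a single edge. The same measure gave 60.7% (59.7 to 61.8) in pairs of like width, whose changes are small, and 41.1% (39.5 to 42.7) for the losses of narrowed pairs. It counts only outward shifts (inward ones in narrowed pairs), so a peak that moved without widening also scores as single-edged. The like-width share is therefore not comparable with that of the members. In members the larger side gained a median of 234 bp (interquartile range 176 to 344 bp). In 98 members the opposite edge drew in by 50 bp or more, so that the peak moved as well as widened. The Elf2 member is an example, with 946 bp gained at one edge and 175 bp lost at the other.

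Scores, as given by the peak caller with 1000 as the highest value in either list, differed between the lists for the same distal members. Distal members had a median score of 728 in vehicle and 930 after TGFβ, and 125 of 459 (27.2%) were at the highest score after TGFβ only, compared with 24 (5.23%) in vehicle only. In pairs of like width the corresponding distal shares were 19.1% and 8.67%. Promoter members went the other way, with 29 of 292 (9.93%) at the highest score after TGFβ only and 41 (14.0%) in vehicle only. Their median score was 1000 in both lists. In promoter pairs of like width these shares were 5.42% and 9.21%. A list repeats many intervals over several rows. More rows stood for the interval after TGFβ in 448 members (59.7%) and fewer in 102 (13.6%), compared with 21.9% and 42.1% of pairs of like width and 4.51% and 79.8% of narrowed pairs. The members had a median of 3 rows in vehicle and 4 after TGFβ. Width, score and number of rows come from the same reads and are not independent of the rule.

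The AP-1 consensus was frequent in distal members. Common stretches held 1.52 sites per kb (1.36 to 1.69), gained stretches 0.622 (0.499 to 0.767) and stretches of equal length just outside the TGFβ 2 h peak 0.141 (0.0864 to 0.218). In narrowed distal pairs the common stretches held 0.857 sites per kb (0.786 to 0.933), the lost stretches 0.190 (0.149 to 0.238) and the stretches just outside 0.200 (0.158 to 0.2495). Gained stretches were thus denser in the consensus than lost stretches, by intervals that do not overlap. They were not set apart from the small added stretches of pairs of like width, which held 0.534 sites per kb (0.425 to 0.663). For scale, whole distal peaks found in the TGFβ 2 h list alone held 1.26 sites per kb (1.22 to 1.31) and those found in the vehicle list alone 0.384 (0.349 to 0.422). Of the 459 distal members, 76 (16.6%) had a site in the gained stretch, 250 (54.5%) in the common stretch and 167 (36.4%) in neither. In promoter members the gained stretches held 0.228 sites per kb (0.141 to 0.349) and the common stretches 0.263 (0.194 to 0.347).

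**Figure D3:**
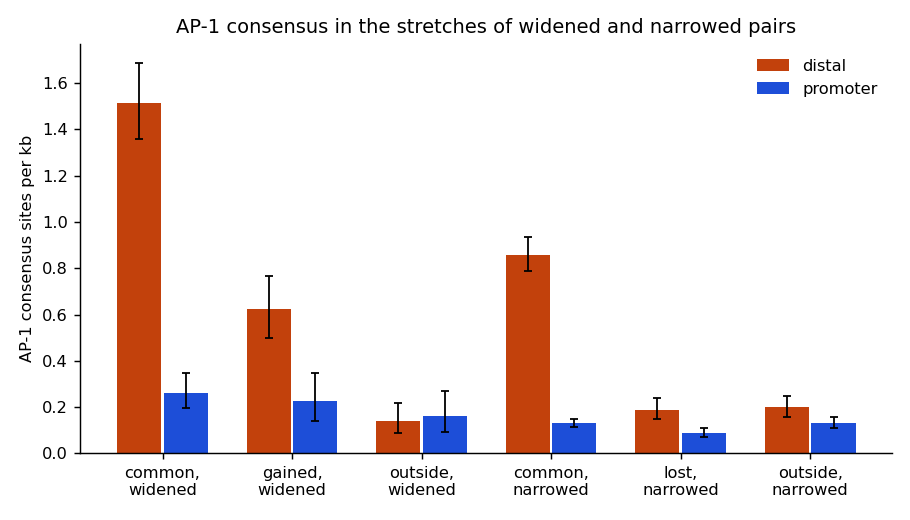
AP-1 consensus sites per kb (bars start at 0; error bars are exact Poisson 95% intervals) in the common, gained or lost, and just-outside stretches of widened and narrowed pairs, distal in orange and promoter in blue. Distal gained stretches reach 0.622 sites per kb, between the common stretches of the same pairs at 1.52 and the lost stretches of narrowed pairs at 0.190.

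Sites were found on both sides of the edge that moved. On the side of the larger gain, the last 100 bp inside the vehicle edge of distal members held 1.96 sites per kb (1.58 to 2.41) and the first 100 bp beyond it 0.959 (0.697 to 1.29). The next 100 bp outward held 0.370 (0.216 to 0.593). Farther inside, the 100 bp next to the edge bin held 1.63 (1.29 to 2.05), with an interval that overlaps it, and the 3 bins beyond that between 1.00 and 1.33. In pairs of like width the corresponding values were 1.03 (0.920 to 1.15) inside and 0.389 (0.323 to 0.466) beyond the vehicle edge. In narrowed pairs, measured at the edge of the TGFβ 2 h peak on the side of the larger loss, they were 0.498 (0.382 to 0.638) inside and 0.128 (0.0734 to 0.209) beyond. From 300 to 400 bp inward of the edge, members held 1.33 (1.02 to 1.71) and pairs of like width 1.45 (1.31 to 1.59). This bin can lie partly outside the vehicle peak, whose lower quartile of width was 391.5 bp in members and 477 bp in pairs of like width. The classes are not alike by construction on either side of the edge. Distal members had narrower vehicle peaks (a median of 492 bp, against 621 bp in pairs of like width), so that the bin inside the edge lies nearer to the centre of the peak, and the rule places most of that first bin inside the TGFβ 2 h peak of a member and most of it outside both peaks of a pair of like width.

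**Figure D4:**
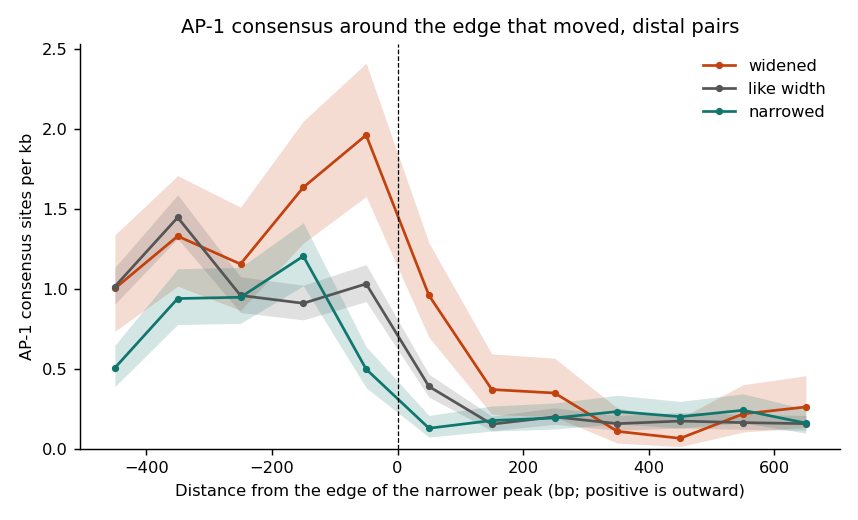
AP-1 consensus sites per kb in 100 bp bins around the edge of the narrower peak (of the vehicle peak for pairs of like width) on the side of the larger change, for distal widened, like-width and narrowed pairs; positive distances point outward and bands are exact Poisson 95% intervals. Widened pairs peak at 1.96 sites per kb just inside the edge and fall to 0.370 in the second bin outside.

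A window of 200 bp at the midpoint of the TGFβ 2 h peak held the consensus in 160 of 459 distal members (34.9%, 30.6 to 39.3), in 19.7% of narrowed distal pairs (17.6 to 22.0) and in 24.2% of those of like width (22.7 to 25.8). Over all 11783 distal TGFβ 2 h peaks the share was 25.5%. The share rose from 12.8% of distal pairs with a width ratio under 0.5 to 38.4% at a ratio of 2 or more. This comparison depended on where the window was placed. At the midpoint of the vehicle peak, the share was 25.7% of members (21.9 to 29.9) and 24.5% of pairs of like width (23.0 to 26.0), and narrowed pairs stayed lower at 17.6% (15.6 to 19.8). Hence the intervals of members and like-width pairs were apart at the TGFβ 2 h midpoint and overlapped at the vehicle midpoint, over pairs of all widths. Vehicle widths differed between these classes by the rule, and the vehicle-midpoint shares were not taken by band of width. The shares by width below use the TGFβ 2 h midpoint. At a TGFβ 2 h width of 600 to 1000 bp the shares were 38.3% (33.1 to 43.8), 24.6% (20.4 to 29.3) and 30.1% (27.7 to 32.5) for widened, narrowed and like-width pairs. The intervals of members and like-width pairs overlapped in other bands. Under 600 bp the shares of members and like-width pairs were 27.5% (18.4 to 39.0) and 19.1% (17.2 to 21.2), and at 1000 bp or more 27.3% (18.6 to 38.1) and 20.4% (15.3 to 26.7). By vehicle width they were apart under 600 bp, at 34.6% (29.7 to 39.8) and 18.9% (17.0 to 21.0), and overlapped from 600 to 1000 bp, at 35.3% (27.3 to 44.2) and 29.9% (27.6 to 32.3). The share was 33.3% (22.2 to 46.6) of members with both peaks at the highest score and 35.1% (30.6 to 39.8) of the others. In pairs of like width it was 23.9% (21.1 to 27.0) and 24.3% (22.6 to 26.1), so that the intervals overlapped at the highest score only.

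**Figure D5:**
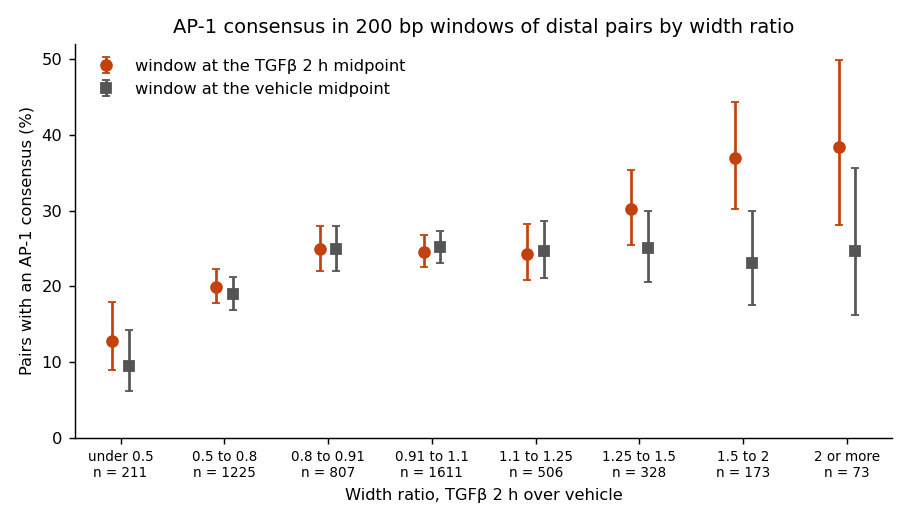
Percentage of distal pairs with an AP-1 consensus in a 200 bp window, by width ratio of the TGFβ 2 h over the vehicle peak; circles use the midpoint of the TGFβ 2 h peak and squares that of the vehicle peak, with Wilson 95% intervals. Circles rise to 38.4% at a ratio of 2 or more, while squares lie between 23.1% and 25.1% from a ratio of 0.8 upward.

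Of the other motifs among the 10 searched on both strands, the GC box was less frequent in distal members than in narrowed and like-width pairs. The GC box GGGCGG, bound by Sp and Klf proteins, was in the midpoint window of 6.75% of distal members (4.80 to 9.43), against 14.1% of narrowed pairs (12.3 to 16.2) and 14.0% of pairs of like width (12.8 to 15.2). The share over all distal TGFβ 2 h peaks was 9.79%. The CTCF core, CAGNNGGCG, was in 2.61% of members (1.502 to 4.51) in 5.94% of narrowed pairs (4.76 to 7.39) and in 4.38% of those of like width (3.71 to 5.17), with 3.56% over all distal TGFβ 2 h peaks. For the CTCF core the interval of the members holds this overall share and overlaps that of pairs of like width, so that narrowed pairs are the class that stands apart. Distal peaks of the TGFβ 2 h list alone had shares near those of the members for both, at 6.87% (6.28 to 7.51) for the GC box and 2.78% (2.40 to 3.20) for the CTCF core. GC content moved with the classes: the median over the TGFβ 2 h peak was 49.3% in distal members, 53.4% in narrowed and 52.0% in like-width distal pairs. In common stretches the medians lay closer, at 50.9%, 53.5% and 52.4%. The part of GC content in these shares and in those of AP-1 was not tested. The palindrome GTCTAGAC, built of a pair of SMAD half-sites, was in the window of 2 distal members only (0.436%, 0.120 to 1.57) and in 0.501% of all distal TGFβ 2 h peaks. For TEAD (GGAATGT, 4.58%), RUNX (TGTGGTT, 6.97%), KLF (GGGTGTGG, 4.36%), forkhead (TGTTTAC, 3.27%), ETS (CCGGAAGT, 0.218%) and CRE (TGACGTCA, 0.654%) the interval of the members overlapped that of pairs of like width. Over all distal TGFβ 2 h peaks these 6 stood at 4.90%, 7.61%, 3.70%, 4.10%, 0.475% and 0.484% in the same order. A motif match describes the letters of a window and not the binding of a factor.

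Distal members lay in introns more often than narrowed and like-width distal pairs. The midpoint was intronic in 48.8% (44.3 to 53.4) and intergenic in 47.7%, whereas introns held 37.5% of narrowed pairs (34.8 to 40.2) and 40.8% of pairs of like width (39.0 to 42.5). At a TGFβ 2 h width of 600 to 1000 bp the intron shares were 48.6% (43.1 to 54.1), 36.3% and 40.3% (37.7 to 42.9) for widened, narrowed and like-width pairs. Under 600 bp, members and like-width pairs did not stand apart, at 42.0% (31.1 to 53.8) and 41.8% (39.3 to 44.4), and at 1000 bp or more they were at 55.8% (44.7 to 66.4) and 36.1% (29.6 to 43.1). The median distance of members to a protein-coding start was 27.7 kb, against 20.1 kb and 22.4 kb, and 15.0% of them (12.1 to 18.6) were 100 kb or more away. That share was 8.99% (7.52 to 10.7) of narrowed pairs and 10.96% (9.90 to 12.1) of pairs of like width, and the last interval overlaps that of the members.

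In promoter members the gain fell downstream of the transcript start more often than upstream. Of the 267 with a protein-coding start in reach, the larger gain was downstream, into the transcribed region, in 172 (64.4%, 58.5 to 69.9) and upstream in 95. The median change was 192 bp downstream and 43 bp upstream. In narrowed promoter pairs, too, the downstream edge changed more, with a median loss of 182 bp downstream and 125 bp upstream, and the larger loss was downstream in 1446 of 2440 and upstream in 993. In promoter pairs of like width the edges hardly differed, with median changes of -12 bp downstream and -8 bp upstream. Coding starts on both strands, as at bidirectional promoters, were within reach of 4.87% of these members (2.87 to 8.15), 10.5% of narrowed promoter pairs (9.34 to 11.8) and 11.8% of those of like width (10.96 to 12.8). The median CpG content, taken over the peak and not around the start, was 6.71 per 100 bp, compared with 8.25 and 7.75. In the stretches common to both peaks, over all promoter pairs of each class, it was 7.37 in members, 8.22 in narrowed and 7.81 in like-width pairs. The gained stretches of members held 3.49.

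Peaks found in the TGFβ 2 h list alone lay within 10 kb of 51 promoter members (17.5%, 13.5 to 22.2) and of 10.6% each of narrowed (9.50 to 11.9) and like-width (9.76 to 11.4) promoter pairs. Within 50 kb the shares were 48.3% (42.6 to 54.004) of promoter members, 42.0% (40.2 to 44.0) of narrowed and 40.1% (38.7 to 41.4) of like-width promoter pairs, and the intervals of members and narrowed pairs overlapped. Among distal members the share within 10 kb was 19.2% (15.8 to 23.0), against 16.6% and 20.8% in narrowed and like-width distal pairs, with intervals that overlap. Over all members it was 18.5% (15.9 to 21.4), and 12.3% with the TGFβ 2 h list cut to the length of the vehicle list. Members rarely neighboured each other: 12 of 751 (1.598%) had another member within 10 kb, as did 1.74% of pairs of like width. Myc, Pde4d and Slc16a1 were each the nearest protein-coding gene of 3 members, of 12, 9 and 5 pairs respectively.

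Genes of 7 lists were set beside the overall 5.37% of pairs, which was 3.23% of promoter and 9.3% of distal pairs. Most of the listed members were distal, and the shares of the lists were not split by place. The counts are small and are given without intervals. Among TGFβ targets and feedback genes 5 of 73 pairs widened (6.85%) and 20 narrowed. Besides Pmepa1, these were a distal pair nearest to Id2, an inhibitor of basic helix-loop-helix factors (438 and 778 bp), a distal pair nearest to Klf10, a TGFβ-inducible zinc finger factor (354 and 636 bp), and a pair of members in an intron of Dlgap1 nearest to Tgif1, a SMAD corepressor (442 and 643 bp, and 514 and 744 bp). The members nearest to Tgif1 carried 2 and 1 consensus sites in their gained stretches. Among genes of the AP-1 family 1 of 29 pairs widened, at the promoter of Fosl2, which encodes Fra-2 (1226 and 1643 bp). Cytoskeletal and mesenchymal genes had 7 of 54 widened pairs (12.96%) and 15 narrowed pairs. They included members nearest to Myh9 (2 members), Tpm1, Actg1, Pdlim7 and Lima1, and the members nearest to Tpm1, a tropomyosin (370 and 631 bp), and Lima1, an actin-binding protein (425 and 664 bp), each had a site in the gained stretch. Genes of transcription factors of the epithelial-to-mesenchymal transition had 4 of 59, nearest to Klf6 (2 members), Klf4 and Sox4. Epithelial junction and keratin genes had 3 of 31. These were nearest to Lad1, which encodes a basement membrane anchoring protein (720 and 947 bp), Cldn4, a tight junction claudin (556 and 741 bp), and Grhl2, a factor that maintains the epithelial state (355 and 785 bp). Matrix and integrin genes had 2 of 60, the Itgb5 member and a pair nearest to Itgb4 (319 and 645 bp). A list of genes that the study itself followed in these cells, and which is no independent choice, had 1 of 11, the Lad1 member again. In each list more pairs narrowed than widened, as over all pairs. A nearest gene is a label of position and not a measured target.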

How the data were processed

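DNaseI-seq libraries of NMuMG cells were compared, 1 peak list for vehicle and 1 for TGFβ 2 h. The authors aligned reads to mm9 and called peaks with MACS2 2.1.2, per the labels and methods; the options for DNaseI data were not given in the sources used here. The deposited files hold peak positions (rows of the same interval repeat) and a score from 540 to 1000 set by the authors' peak caller; they hold no read counts. The study's reporting summary lists merged read files, a single alignment for each condition and fewer filtered reads for TGFβ 2 h; the effect of depth on width was not tested.

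Identical intervals were collapsed, peaks overlapping by at least 1 bp were paired one to one, and pairs were classed by width as described. Transcript starts, introns and exons came from GENCODE M1 and sequence from NCBIM37 (mm9). Motif matches were counted on both strands. The genes and regions named are the 8 distal and 8 promoter members with the largest gains, 3 pairs on either side of each limit, and members nearest to listed genes, except that 1 listed gene and 1 sequence are not reported here; the 3 genes with most members were chosen after their values were seen. Members, lists and comparisons were chosen with earlier results of these data known. No test between conditions was run, since 1 list stands for each. Pairing and motif counting were tested on simulated data. Alternatives covered overlap, limits, small or adjacent peaks, score, list length, promoter definition, windows and chromosome X. Analyses used Python 3.11.15, NumPy 2.4.6 and SciPy 1.17.1.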

Additional observations from a re-analysis of the deposited data

How the results depend on the processing

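No paired analysis was possible because vehicle and TGFβ 2 h have 1 peak list each. In 77 recalculations, 3 of them chosen after seeing the data, 53 values stayed within the interval of the reported value (for the number of members, within 1.5 times of it), and widened pairs did not outnumber narrowed ones in any setting of that ratio. At least 1.5 times and 300 bp gave 193 members, 0.154 widened per narrowed pair, a promoter share of 31.1%, gains at both edges in 41.5%, a median gain of 422 bp and AP-1 windows in 41.4% of distal members. Keeping pairs with both peaks at the highest score gave 187 members, a ratio of 0.0955, a promoter share of 71.1% (88.1% of narrowed and 82.6% of like-width pairs), both edges in 23.5% and 0.406 AP-1 sites per kb of gained stretch (0.149 to 0.883), an interval that overlaps that of lost stretches. Dropping peaks under 150 bp and joining peaks closer than 1000 bp gave a ratio of 0.262, both edges in 27.7%, a median gain of 306 bp and AP-1 windows in 27.0%, an interval that overlaps that of like-width pairs (24.0%). With no minimum in bp the ratio was 0.220, both edges 27.4% and the median gain 232.5 bp; with 50% reciprocal overlap the promoter share was 44.3% and the median gain 247.5 bp. AP-1 windows were found in 50.1% of distal members with 400 bp and in 25.7% at the vehicle midpoint. A peak of the TGFβ 2 h list alone was near 12.3% of members with that list cut to the length of the vehicle list, and near 53.4% within 50 kb (46.96% of narrowed and 46.3% of like-width pairs). The promoter share stayed below those of narrowed and like-width pairs, with intervals apart, in 10 of 10 settings, the AP-1 window share was above them with intervals apart in 9 of 12 (intervals overlapped when joining, at the highest score and at the vehicle midpoint), and sites per kb were higher in gained than lost stretches with intervals apart in 9 of 10 (they overlapped at the highest score). The cause of these shifts was not tested.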
